A study of Homo sapiens with 16 samples.

Results

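The genes described here are OXTR, OPRL1, AQP1, OLFML3, SHC2, TSPAN2 and B3GALT4, 7 of the 60719 genes in the count tables. They were chosen because their mRNA rises most after knockdown of Myc in 231:TKO cells, in parental 231 cells or in both, so the size of that rise is a description of the choice and not a finding. The cells were MDA-MB-231 (231), a line from a human breast cancer of the triple-negative type. 231:TKO cells descend from them through a CRISPR/Cas9 plasmid that knocked out TXNIP, with clones isolated from single cells. A clone can differ from the parental population in ways other than the targeted gene. The 6 groups were untreated parental 231 cells (2 libraries), untreated 231:TKO cells (2), and parental 231 and 231:TKO cells given for 48 hours either a non-targeting siRNA (siNT, 3 libraries each) or an siRNA against Myc (siMyc, 3 each). Counting used single reads in the untreated libraries and read pairs in the siRNA libraries, so treatment and sequencing mode cannot be told apart between them. Values of single libraries are CPM, the raw count of a gene scaled to a common library total, and totals ran from 18953668 to 59799444.

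Myc is a transcription factor that pairs with Max, binds the E-box CACGTG and related sequences, and raises the expression of many genes of ribosome production, metabolism and growth. It can also repress genes, in part through partners such as Miz1 that are bound at promoters. TXNIP is an arrestin-like protein that restrains glucose uptake and binds thioredoxin, and its transcription follows glucose through the Myc-related factor MondoA. The 7 genes have no single pathway in common. OXTR is the receptor for oxytocin, which couples to Gq proteins and contracts uterine smooth muscle and the myoepithelial cells of the lactating breast. OPRL1 is the receptor for nociceptin, a member of the opioid receptor family that couples to Gi proteins. AQP1 is a water channel of red blood cells, kidney and endothelium. OLFML3 is a secreted glycoprotein with an olfactomedin domain. SHC2 is an adaptor that links phosphorylated receptor tyrosine kinases to GRB2 and Ras. TSPAN2 is a tetraspanin, a membrane protein that crosses the bilayer 4 times and gathers other proteins around it. B3GALT4 is a Golgi enzyme that adds galactose in the synthesis of the gangliosides GM1 and GD1b.

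The targeted genes were read first. MYC was at 98.6 and 99.9 CPM in untreated parental 231, at 113 and 88.8 in untreated 231:TKO, between 122 and 126 in parental 231+siNT and between 126 and 148 in 231:TKO+siNT. After siMyc it was between 61.6 and 64.9 CPM in parental 231 and between 59.2 and 59.7 in 231:TKO, below every siNT library. TXNIP was between 288 and 445 CPM in the 8 parental 231 libraries and between 6.76 and 12.4 in 7 of the 8 231:TKO libraries, while untreated 231:TKO replicate 2 was at 46.0. The cell line was checked against marker genes. The mesenchymal genes VIM, CD44, FN1 and ZEB1 were above 1 CPM in every library, as were KRT8, KRT18 and EPCAM, while CDH1 ran from 0.267 to 8.96 CPM. ESR1 and PGR, which encode the estrogen and progesterone receptors, were at most 0.317 and 0.0777 CPM, while ERBB2, which encodes the receptor HER2 and was listed with them, lay between 73.2 and 108.3 CPM in every library. Of 10 marker genes of leukocytes, vessels, stroma and nerve, 5 were below 1 CPM in every library and 2, PDGFRB and MBP, above 1 CPM in every library, and the summed level of the 10 was between 139.9 and 293 CPM. The part of these markers in the results was not tested. Parental 231+siNT replicate 1 and parental 231+siMyc replicate 3 stood apart from the other parental siRNA libraries and deviated together from their group means (Pearson's r = 0.898 over 13445 genes), so the responses of parental 231 to siMyc are given below with and without them.

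RefSeq promoter windows (GRCh38.p14, 250 bases before and 50 bases from each transcription start on) were available for 6 of the 7 genes, with 10 windows in all because OXTR and OPRL1 have 3 starts each. Several letter patterns were searched on both strands. The E-box CACGTG was present in 1 of the 10 windows and in 7.26% of all 35116 windows. The general E-box CANNTG, which contains the former, was present in 6 of 10 windows (68.7% of all windows). The GC box GGGCGG was found in 7 of 10 (45% of all windows). The pattern TATAAA of the TATA box was found in 1 of 10 (11.5% of all windows). The windows printed below include those with the only E-box of the strict form and the only TATA box among the 10. For OXTR, the gene that rose most in 231:TKO, 1 of its 3 starts is printed. The first OPRL1 window is printed for the stretch shared with the start of its neighbour RGS19. All printed windows read 5′ to 3′ on the gene's strand. Matches to the general E-box and to the GC box on either strand are in capitals.
OXTR, chr3:8769564-8769863, minus strand: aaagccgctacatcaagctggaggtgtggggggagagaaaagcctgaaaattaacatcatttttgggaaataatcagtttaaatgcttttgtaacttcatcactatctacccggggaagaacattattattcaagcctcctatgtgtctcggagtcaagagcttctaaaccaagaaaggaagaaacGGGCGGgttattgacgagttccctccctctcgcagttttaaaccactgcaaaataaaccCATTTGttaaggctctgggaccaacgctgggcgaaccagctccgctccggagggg
AQP1, chr7:30911603-30911902, plus strand: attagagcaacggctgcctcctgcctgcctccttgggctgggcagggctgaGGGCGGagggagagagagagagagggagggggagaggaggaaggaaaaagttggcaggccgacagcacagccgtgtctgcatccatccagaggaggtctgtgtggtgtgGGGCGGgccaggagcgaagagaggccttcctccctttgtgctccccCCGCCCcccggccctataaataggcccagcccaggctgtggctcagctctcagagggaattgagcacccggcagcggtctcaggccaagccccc
OPRL1, first start, chr20:64079832-64080131, plus strand: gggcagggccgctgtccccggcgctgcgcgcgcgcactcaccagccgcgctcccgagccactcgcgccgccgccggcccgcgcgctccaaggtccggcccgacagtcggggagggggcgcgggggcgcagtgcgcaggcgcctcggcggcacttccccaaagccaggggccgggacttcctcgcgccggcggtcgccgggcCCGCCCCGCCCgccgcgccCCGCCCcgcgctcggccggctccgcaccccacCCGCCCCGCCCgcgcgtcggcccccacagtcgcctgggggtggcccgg
OPRL1, last start, chr20:64092438-64092737, plus strand: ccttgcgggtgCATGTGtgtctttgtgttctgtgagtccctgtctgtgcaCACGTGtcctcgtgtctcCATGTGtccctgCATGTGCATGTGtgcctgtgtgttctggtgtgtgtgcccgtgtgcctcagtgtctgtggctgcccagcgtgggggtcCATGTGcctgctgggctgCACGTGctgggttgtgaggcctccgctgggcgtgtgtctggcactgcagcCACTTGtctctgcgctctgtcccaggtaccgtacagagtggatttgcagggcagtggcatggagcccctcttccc
The printed OXTR window held 1 general E-box, 5 bases before the start, and 1 GC box, and its GC content of 46.3% was below the median of 58.7% over all windows. The OXTR windows not printed were above that median, at 67.7% and 59.3% GC, with 0 and 3 general E-boxes and 0 GC boxes. The AQP1 window held 3 GC boxes and its TATA box began 30 bases before the start. The first OPRL1 window held 5 GC boxes, no E-box and 54 CpG dinucleotides, against a median of 14 over all windows. The last OPRL1 window held the strict E-box at 200 and at 75 bases before the start, among 8 general E-boxes. Of the windows not printed, those of TSPAN2 and SHC2 had 79.7% and 78.7% GC with 5 and 4 GC boxes, and that of OLFML3 held 1 general E-box and 1 GC box. These matches describe letters in a window and not bound sites.

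The 7 genes had low to middling levels in all groups. In each siRNA group they lay between 0.553 and 27.9 CPM in single libraries, where 3 counts, taken as the least the depth can show, correspond to between 0.0502 and 0.0942 CPM. The plot of levels by library shows each value, with MYC beside the 7 genes for reference.

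**Figure D1:**
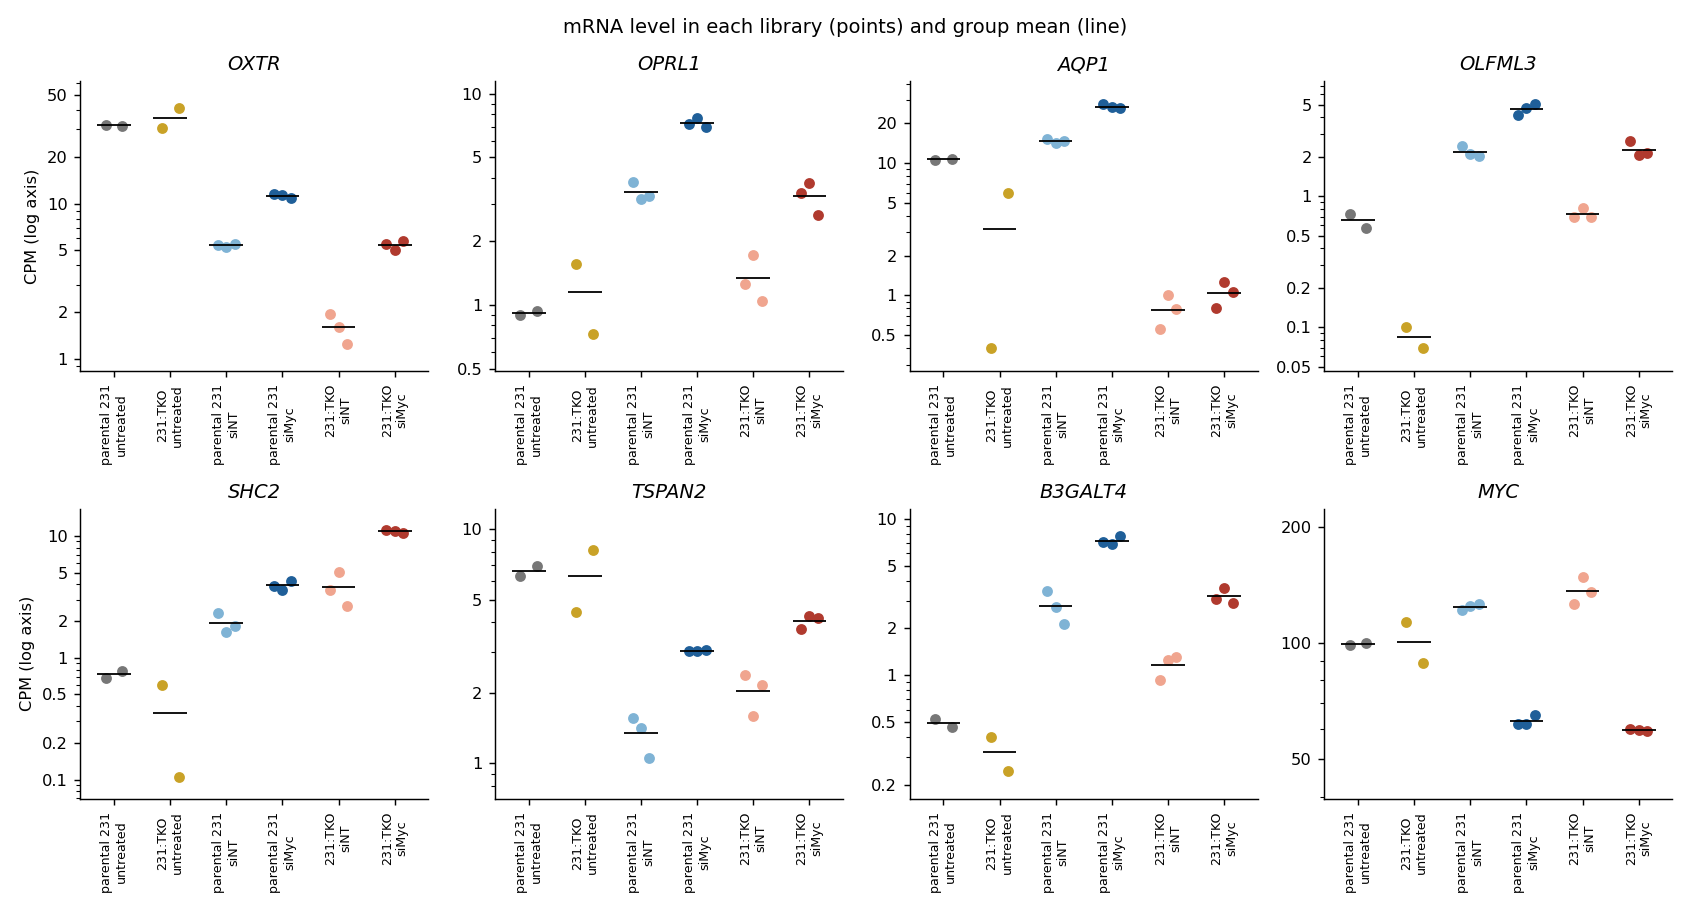
CPM of the 7 genes and MYC in each of the 16 libraries, on log axes that differ between panels. Points are libraries, lines are group means. In 231:TKO and in parental 231 the siMyc libraries lie above the siNT libraries for each of the 7 genes except AQP1 in 231:TKO, where the groups overlap, and MYC lies below.

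The receptors OXTR and OPRL1 are given first. OXTR (ENSG00000180914, chromosome 3 from 8750408 to 8769628, minus strand) was at 1.95, 1.60 and 1.25 CPM in 231:TKO+siNT and at 5.48, 5.02 and 5.77 in 231:TKO+siMyc. The groups did not overlap, and the means of 1.60 ± 0.349 and 5.42 ± 0.380 CPM (SD, n = 3 each) differed by 3.39-fold, with a log2 fold change of 1.75 (standard error, SE, 0.15). In parental 231 it was at 5.44, 5.22 and 5.47 CPM with siNT and at 11.5, 11.3 and 10.9 with siMyc, again without overlap, a 2.09-fold difference with a log2 fold change of 1.08 (SE 0.10). OXTR was the gene with the largest log2 fold change of the 13406 that averaged 1 CPM or more in 231:TKO and held place 6 of 13409 in parental 231. In bulk RNA, a larger share of cells that express a gene and more of its RNA in each cell cannot be told apart.

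OPRL1 (ENSG00000125510, chromosome 20 from 64080082 to 64100643, plus strand) was at 1.25, 1.73 and 1.05 CPM in 231:TKO+siNT and at 3.41, 3.80 and 2.68 in 231:TKO+siMyc. The groups did not overlap, with a 2.46-fold difference of the means and a log2 fold change of 1.29 (SE 0.18). In parental 231 it was at 3.84, 3.19 and 3.30 CPM with siNT and at 7.17, 7.67 and 7.0 with siMyc, a 2.12-fold difference (log2 fold change 1.10, SE 0.12). RGS19, which encodes an inhibitor of Gi signalling, starts on the opposite strand with 93 bases between the annotated starts, and its log2 fold change was 0.15 in 231:TKO (SE 0.07, edgeR, Benjamini-Hochberg adjusted p = 0.118) and 0.14 in parental 231 (SE 0.13, adjusted p = 0.709).

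AQP1 (ENSG00000240583, chromosome 7 from 30911853 to 30925517, plus strand) differed between the cell populations. In parental 231 it was at 15.3, 14.3 and 14.8 CPM with siNT and at 27.9, 26.7 and 26.0 with siMyc, without overlap, a 1.82-fold difference with a log2 fold change of 0.89 (SE 0.10). In 231:TKO it was at 0.553, 1.00 and 0.786 CPM with siNT and at 0.808, 1.27 and 1.06 with siMyc. These groups overlapped, and the log2 fold change was 0.42 (SE 0.25), from 19 to 46 counts per library. AQP1 held place 19 of 13409 in parental 231 and averaged under 1 CPM over the 6 siRNA libraries of 231:TKO (0.781 ± 0.226 with siNT and 1.05 ± 0.234 with siMyc, SD, n = 3 each), where its level with siMyc was still 14.1-fold below that of parental 231+siNT.

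OLFML3 (ENSG00000116774, chromosome 1 from 113979391 to 114035572, plus strand) was at 0.698, 0.816 and 0.699 CPM in 231:TKO+siNT and at 2.63, 2.05 and 2.13 in 231:TKO+siMyc, and at 2.43, 2.09 and 2.01 in parental 231+siNT and 4.18, 4.70 and 5.06 in parental 231+siMyc. The siMyc libraries lay above the siNT libraries in both populations, by 3.07-fold in 231:TKO (log2 fold change 1.60, SE 0.20) and by 2.13-fold in parental 231 (1.11, SE 0.14). SHC2 (ENSG00000129946, chromosome 19 from 416583 to 460996, minus strand) was at 3.58, 5.09 and 2.65 CPM in 231:TKO+siNT and at 11.1, 11.1 and 10.5 in 231:TKO+siMyc. In parental 231 it was lower, at 2.34, 1.62 and 1.83 CPM with siNT and at 3.91, 3.59 and 4.27 with siMyc. The groups did not overlap in either population, and the differences were 2.89-fold (log2 fold change 1.53, SE 0.14) and 2.03-fold (1.04, SE 0.17).

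TSPAN2 (ENSG00000134198, chromosome 1 from 115048011 to 115089503, minus strand) was at 2.39, 1.60 and 2.15 CPM in 231:TKO+siNT and at 3.75, 4.24 and 4.17 in 231:TKO+siMyc, a 1.98-fold difference (log2 fold change 0.97, SE 0.15). In parental 231 it was at 1.56, 1.42 and 1.06 CPM with siNT and at 3.01, 3.01 and 3.04 with siMyc, a 2.24-fold difference (log2 fold change 1.19, SE 0.17). TSPAN2 was thus in place 65 of 13406 in 231:TKO and in place 2 of 13409 in parental 231. B3GALT4 (ENSG00000235863, chromosome 6 from 33277123 to 33284832, plus strand) was at 0.931, 1.26 and 1.31 CPM in 231:TKO+siNT and at 3.06, 3.60 and 2.91 in 231:TKO+siMyc, a 2.74-fold difference (log2 fold change 1.44, SE 0.17). In parental 231 it was at 3.46, 2.74 and 2.14 CPM with siNT and at 7.09, 6.91 and 7.73 with siMyc, a 2.61-fold difference (log2 fold change 1.40, SE 0.18), the largest there among genes at 1 CPM or more. Neither gene overlapped between siNT and siMyc in either population.

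B3GALT4 lies in a dense stretch of chromosome 6. RPS18, a ribosomal protein gene that ends 611 bases before it on the same strand, fell in 231:TKO after siMyc by 0.58 on the log2 scale (edgeR, Benjamini-Hochberg adjusted p = 3.1e-08), and WDR46, a gene of ribosome assembly that overlaps it on the opposite strand, fell by 0.41 (adjusted p = 9.7e-06). In parental 231 their log2 fold changes were -0.38 and -0.27, with adjusted p-values of 0.459 and 0.275 by the same test. CAV3, a muscle caveolin whose annotated span covers OXTR on the opposite strand, had at most 34 counts in any library and did not pass the test after siMyc in 231:TKO (log2 fold change 0.98, SE 0.44, adjusted p = 0.108) or in parental 231 (0.92, SE 0.31, adjusted p = 0.219). HIPK1, upstream of OLFML3 on the same strand, had log2 fold changes of -0.11 and -0.15. Reads were assigned by strand, so a gene and its partner on the opposite strand were counted apart.

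In 231:TKO, 6 of the 7 genes lay above siNT in every siMyc library and AQP1 overlapped, where 19.8% of all 22450 tested genes were higher without overlap. In parental 231 all 7 did, where the share of all 23728 tested genes was 9.28%. The rule used these libraries, so the counts only describe the choice. The median log2 fold change of the 7 genes was 1.44 in 231:TKO and 1.10 in parental 231, and that of all tested genes 0.0072 and -0.0017. With the pair of parental libraries that stood apart left out, the log2 fold changes in parental 231 lay between 0.93 (AQP1) and 1.54 (B3GALT4), and with a factor for the pair between 0.89 and 1.41. Both settings were chosen after the data had been seen.

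**Figure D2:**
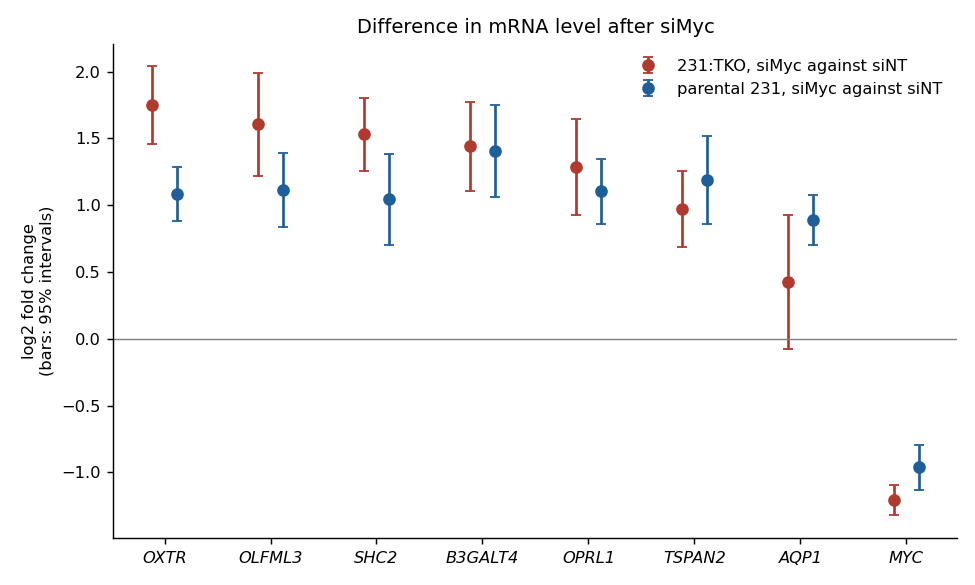
Log2 fold change after siMyc of the 7 genes and MYC in 231:TKO (red) and parental 231 (blue), 3 against 3 libraries each. Bars are 95% intervals that assume a normal spread. The 7 genes lie between 0.42 and 1.75 in 231:TKO and between 0.89 and 1.40 in parental 231, and the bar of AQP1 in 231:TKO crosses 0.

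**Figure D3:**
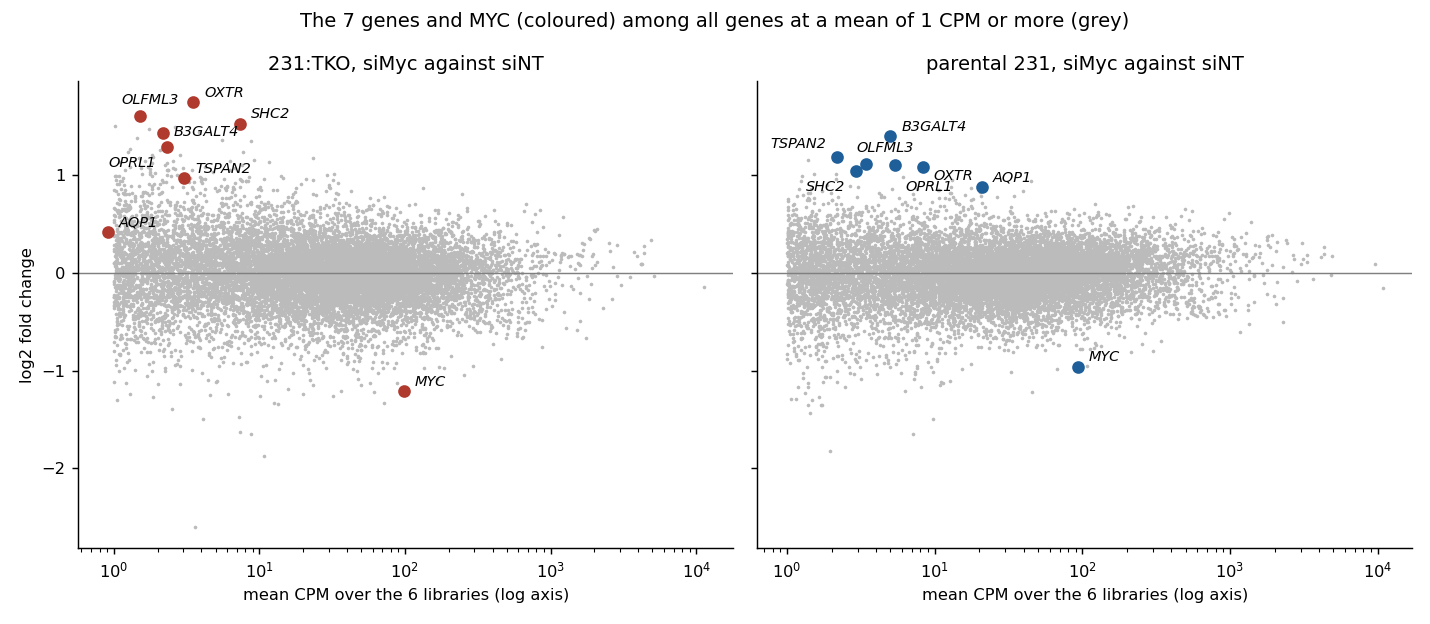
Log2 fold change after siMyc against mean CPM (log axis) of all genes that averaged 1 CPM or more, with the 7 genes and MYC coloured. The genes stand at the upper edge of the cloud at low to middling levels, apart from AQP1 in 231:TKO at 0.42, whose mean there is below 1 CPM.

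The responses of the populations were set against each other in 1 fit of the 12 siRNA libraries. The difference of the log2 fold changes, 231:TKO minus parental 231, was 0.70 for OXTR (95% interval from the standard error 0.33 to 1.06), 0.52 for OLFML3 (0.06 to 0.98) and 0.51 for SHC2 (0.00 to 1.02). It was 0.21 for OPRL1 (-0.26 to 0.68), 0.07 for B3GALT4 (-0.42 to 0.55), -0.19 for TSPAN2 (-0.65 to 0.28) and -0.43 for AQP1 (-0.92 to 0.05). Without the pair of parental libraries the difference was 0.61 for OXTR, 0.44 for OLFML3 (-0.08 to 0.96) and 0.36 for SHC2 (-0.10 to 0.81). In that setting the difference was -0.54 for AQP1 (-1.01 to -0.06), -0.36 for TSPAN2, 0.04 for OPRL1 and -0.14 for B3GALT4. With a factor for the pair it was 0.70 for OXTR, 0.52 for OLFML3 (0.03 to 1.01) and 0.51 for SHC2 (0.13 to 0.88). AQP1 was then at -0.43 (-0.89 to 0.03), and OPRL1, B3GALT4 and TSPAN2 were at 0.21, 0.06 and -0.19. As the genes were chosen on these responses, no test is given for them. The intervals assume a normal spread, describe the estimates and are not read as tests against 0. Of all 25812 genes, 0 passed the threshold by edgeR's quasi-likelihood test (0% called), 1039 had an unadjusted p under 0.05, and DESeq2 called 6.

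The levels with siNT differed between the populations in both directions. OXTR, OPRL1, AQP1, OLFML3 and B3GALT4 were lower in every 231:TKO+siNT library than in every parental 231+siNT library, and SHC2 and TSPAN2 were higher. Of all 23310 genes tested, 24.7% were lower and 26.7% higher without overlap. The log2 fold change was -4.30 for AQP1 (SE 0.17), -1.81 for OXTR (0.17), -1.62 for OLFML3 (0.20), -1.42 for OPRL1 (0.20), -1.31 for B3GALT4 (0.22), 0.55 for TSPAN2 (0.21) and 0.90 for SHC2 (0.24). These are the control libraries of the responses above, so they are given without a test. Annotation release and library total also differ between these groups and cannot be told apart from population.

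The levels of OXTR, OPRL1, OLFML3 and B3GALT4 in 231:TKO after siMyc overlapped those of parental 231 with siNT. The share of all genes that overlap in this way was not counted, and the genes were chosen on these libraries. The overlap is thus not read as particular to these genes. The means were 5.42 ± 0.380 and 5.38 ± 0.138 CPM for OXTR, 3.30 ± 0.566 and 3.44 ± 0.348 for OPRL1, 2.27 ± 0.313 and 2.18 ± 0.220 for OLFML3 and 3.19 ± 0.365 and 2.78 ± 0.665 for B3GALT4 (SD, n = 3 each). AQP1 remained below the range of parental 231+siNT, and SHC2 and TSPAN2 lay above it by 5.64-fold and 3.01-fold. No library is shared by the groups compared here, and overlap of 3 with 3 libraries does not show that the levels are equal.

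The untreated libraries took no part in the choice of the genes, so 231:TKO was tested against parental 231 in them. All 7 genes passed the filter of more than 5 counts summed over the 4 libraries. OLFML3 had 25 counts in parental 231 and 5 in 231:TKO, so it passed only through parental 231, the group where it was higher. OLFML3 was the 1 gene of 7 past the threshold, where 9.61% of all 19965 tested genes passed in either direction and 4.18% of all tested genes passed as lower in 231:TKO. It was at 0.739 and 0.571 CPM in parental 231 and at 0.100 and 0.0694 in 231:TKO, without overlap, with a log2 fold change of -2.83 (SE 0.50, edgeR, Benjamini-Hochberg adjusted p = 0.0326). The 231:TKO values rest on 3 and 2 counts, and the pooled level of parental 231 was 7.69-fold that of 231:TKO, with an exact 95% interval of 2.89 to 25.7 that covers counting error only. With DESeq2 the log2 fold change was -2.91 and did not pass (adjusted p = 0.100), and the same held in edgeR without parental 231 replicate 1 (-2.64, adjusted p = 0.370) or replicate 2 (-3.01, adjusted p = 0.334). In the latter 2 settings 0% of all genes passed, with 2166 and 2140 at an unadjusted p under 0.05.

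AQP1 was at 10.6 and 10.9 CPM in untreated parental 231 and at 0.401 and 5.93 in untreated 231:TKO. Both 231:TKO libraries lay below parental 231, but they differed from each other by more than their exact 95% counting intervals, 0.207 to 0.701 CPM in replicate 1 and 5.08 to 6.89 in replicate 2. Replicate 2 was also the 231:TKO library with the highest TXNIP, 46.0 CPM against 12.4 in replicate 1; the part of this in the result was not tested. The log2 fold change of AQP1 was -1.72 (SE 1.07, adjusted p = 0.400). With replicate 1 of 231:TKO left out it was -0.83 (adjusted p = 0.00400) and with replicate 2 left out -4.68 (adjusted p = 0.000388), in fits that assume the lone library to vary like parental 231. In these fits 37.4% and 36% of all tested genes passed the threshold.

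OXTR was at 32.2 and 31.7 CPM in untreated parental 231 and at 30.5 and 40.9 in untreated 231:TKO, so the populations overlapped (log2 fold change 0.20, SE 0.15, adjusted p = 0.478). OPRL1 was at 0.897 and 0.935 CPM in parental 231 and at 1.57 and 0.728 in 231:TKO (log2 fold change 0.37, adjusted p = 0.673). TSPAN2 was at 6.33 and 6.96 CPM in parental 231 and at 4.44 and 8.15 in 231:TKO (log2 fold change -0.04, adjusted p = 0.955). For OXTR, OPRL1 and TSPAN2 alike, one 231:TKO library lay below and the other above the parental 231 libraries. B3GALT4 was at 0.528 and 0.467 CPM in parental 231 and at 0.401 and 0.243 in 231:TKO, from 7 to 12 counts in every library (log2 fold change -0.58, adjusted p = 0.485). SHC2 was at 0.686 and 0.779 CPM in parental 231 and at 0.601 and 0.104 in 231:TKO, the last value from 3 counts (log2 fold change -0.99, SE 0.75, adjusted p = 0.481). Without 231:TKO replicate 1, OXTR (0.38, adjusted p = 0.00472) and SHC2 (-2.73, adjusted p = 0.0200) passed the threshold, and without replicate 2 TSPAN2 did (-0.54, adjusted p = 0.0317), in the same fits with the spread of parental 231 alone, where 37.4% and 36% of all tested genes passed. The adjusted p-values of these genes and of AQP1 are edgeR's. AQP1, OLFML3, SHC2 and B3GALT4, 4 of 7, were lower in 231:TKO without overlap, against 32% of all tested genes.

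**Figure D4:**
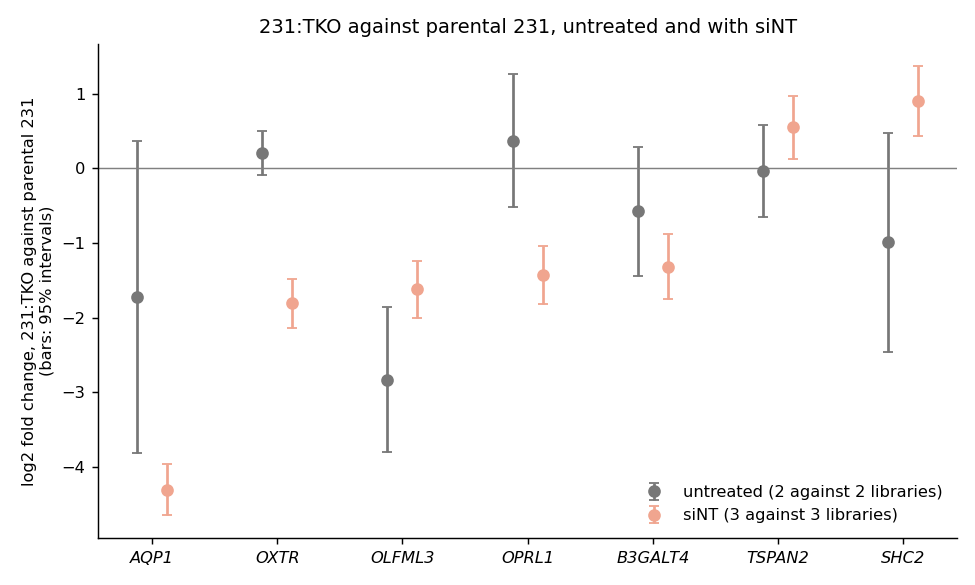
Log2 fold change of 231:TKO against parental 231 in untreated cells (grey, 2 against 2 libraries) and with siNT (pink, 3 against 3). Bars are 95% intervals that assume a normal spread and are not read as tests. The untreated bars exclude 0 for OLFML3 alone, at -2.83, and SHC2 is at -0.99 untreated and 0.90 with siNT.

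The untreated and siRNA libraries differed more for some of these genes than siMyc and siNT did. OXTR was 5.94-fold higher in untreated parental 231 than in parental 231+siNT and 22.3-fold higher in untreated 231:TKO than in 231:TKO+siNT. Only 0.64% and 0.134% of 13445 genes that averaged 1 CPM or more were as low in siNT against untreated. After siMyc it remained below untreated in every library, by 2.85-fold in parental 231 and 6.59-fold in 231:TKO. TSPAN2 was likewise higher untreated, by 4.94-fold and 3.08-fold, and after siMyc was still below untreated, by 2.20-fold and 1.55-fold. B3GALT4 went the other way, with siNT 5.59-fold above untreated in parental 231 and 3.62-fold in 231:TKO, and OLFML3 did as well, by 3.33-fold and 8.70-fold. SHC2 was 2.64-fold higher with siNT in parental 231 and 10.7-fold in 231:TKO, where the ratio was 36.2-fold without untreated replicate 1 and 6.27-fold without untreated replicate 2. These ratios are of mean CPM, and siRNA treatment, sequencing mode and culture cannot be told apart as their source.

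Set per length, as CPM scaled by TMM factors per kilobase of exons, the order of the genes changed with the group. In untreated parental 231, OXTR led with a level of 6.64 ± 0.0967 CPM per kilobase, followed by AQP1 at 3.08 ± 0.0401 and TSPAN2 at 1.83 ± 0.116 (SD, n = 2), and the other 4 lay between 0.167 and 0.236. OPRL1, OLFML3 and B3GALT4 overlapped with their neighbours in that order. In parental 231+siMyc, AQP1 led with a level of 8.62 ± 0.353 CPM per kilobase, above B3GALT4 at 3.20 ± 0.163 and OXTR at 2.58 ± 0.0904 (SD, n = 3), and SHC2 and TSPAN2, the lowest, overlapped. In 231:TKO+siNT the levels lay between 0.236 (AQP1) and 0.904 (SHC2) CPM per kilobase and every gene overlapped with the next. In 231:TKO+siMyc, SHC2 led with 2.59 ± 0.0862 CPM per kilobase, above B3GALT4 at 1.32 ± 0.152, OXTR at 1.18 ± 0.0814 and TSPAN2 at 1.17 ± 0.0736, which overlapped with each other, and AQP1 was lowest at 0.314 ± 0.0696.

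The patterns over the 16 libraries were compared with those of all 13445 genes that averaged 1 CPM or more, by Pearson's r of log2(CPM + 0.5). The libraries fall into 6 groups and share their treatment and sequencing mode, so these values describe likeness and are given without a test. The genes most like OXTR were SNAI2 (r = 0.980), BDNF and PALS1. Those most like AQP1 were TXNIP (r = 0.978), the gene knocked out here, VLDLR and TRAPPC12. Nearest to OPRL1 were PRR5L, FAM234A and B3GALT4 (r between 0.960 and 0.964). OLFML3 was nearest to YPEL5 (r = 0.981), YIPF3 and TMEM92, and B3GALT4 to OSCP1 (r = 0.985), MAGED2 and TMEM92. SHC2 was nearest to CYP27A1 (r = 0.976), MGAT4B and VSIR, and TSPAN2 to TPM1 (r = 0.943), PDCD6IP-DT and LINC02977. Among the 7 themselves, OPRL1, OLFML3 and B3GALT4 ran together with r between 0.928 and 0.971, OXTR and TSPAN2 had r = 0.743, and OXTR and SHC2 r = -0.640.

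The other genes of each family were read beside the gene described. Over all 22450 tested genes in 231:TKO, 13.3% rose and 13.9% fell after siMyc. These shares cover genes of all levels and were not matched to the levels of the family genes. The ligands and sister receptors of OXTR were mostly at or below the level of 3 counts. OXT had 0 counts in all 16 libraries, which allows up to 0.158 CPM in the shallowest library, and AVPR1A, AVPR1B and AVP had at most 2, 1 and 3. The vasopressin receptor gene AVPR2 was the exception, with more than 3 counts in 8 libraries and at most 0.722 CPM, and averaged 0.600 CPM in 231:TKO+siNT, where its log2 fold change after siMyc of -0.69 did not pass the test. The oxytocinase LNPEP and the Gq pathway genes GNAQ, GNA11 and PLCB3 were at 32.6 CPM or more in every library. Of the 12 other genes of this system, 7 were tested in 231:TKO and 0 were called, with a median log2 fold change of -0.06. The opioid receptors OPRM1, OPRD1 and OPRK1 and the precursors PNOC, PENK, PDYN and POMC had at most 6 counts in any library, so OPRL1 was the 1 opioid receptor with more counts than that. Of the 11 tested genes of the opioid system, the beta-arrestin ARRB2 fell by 0.77 on the log2 scale (SE 0.08, adjusted p = 1.1e-07), while ARRB1 (0.26, adjusted p = 0.00143) and the G protein subunit GNAI2 (0.22, adjusted p = 0.000980) rose.

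Of the 13 other aquaporins, 5 were tested in 231:TKO and 3 were called higher, where 13.3% of all tested genes rose and 13.9% fell. The median log2 fold change of the 5 was 1.33, the value of AQP7, and AQP5, AQP6 and AQP7 each averaged at most 0.0590 CPM with siNT. AQP3, which also passes glycerol, rose from 44.0 ± 2.17 to 62.9 ± 4.30 CPM (log2 fold change 0.51, adjusted p = 2.5e-06), and AQP11 by 0.68 (adjusted p = 0.00110). AQP6 was the other gene called, with means of 0.0291 and 0.236 CPM, the first below the level of 3 counts. It passed the filter only through the siMyc libraries, the group where it was higher. Of the olfactomedin family, 3 of 7 tested genes rose, ADGRL2 (0.45), OLFML2A (0.22) and OLFML1 (1.36), with adjusted p-values of 0.00110, 0.00346 and 0.0446. Of the 9 relatives and partners of SHC2, only the phosphatase PTPN11 was called, which fell by 0.16 (adjusted p = 0.0293), and the median log2 fold change was -0.02.

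Tetraspanins are the longest of these lists, and other members of it rose. Of 24 tested, 13 rose and 0 fell after siMyc in 231:TKO, with a median log2 fold change of 0.28. Of all tested genes, 13.3% rose and 13.9% fell, shares that were not matched to the levels of these genes. CD63, a tetraspanin of late endosomes and exosomes, rose from 445.3 ± 14.5 to 628.6 ± 11.7 CPM (0.49, adjusted p = 6.4e-08), CD9 by 0.41 (adjusted p = 7.5e-07) and TSPAN31 by 0.55 (adjusted p = 1.1e-05). Of the 13 tested genes of galactosyl transfer and ganglioside synthesis, 6 rose and 2 fell. ST3GAL5, which makes GM3, the entry point of gangliosides, rose by 0.61 (adjusted p = 3.9e-07), as did the GD3 synthase ST8SIA1 (0.82, adjusted p = 0.00270) and B4GALT5, which makes lactosylceramide (0.18, adjusted p = 0.00433). B4GALNT1, whose product is the substrate of B3GALT4, was among those that fell, by 0.30 on the log2 scale (adjusted p = 0.0128), and was chosen for mention after its value was seen. All adjusted p-values of these families are edgeR's, adjusted by Benjamini-Hochberg over all tested genes.

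**Figure D5:**
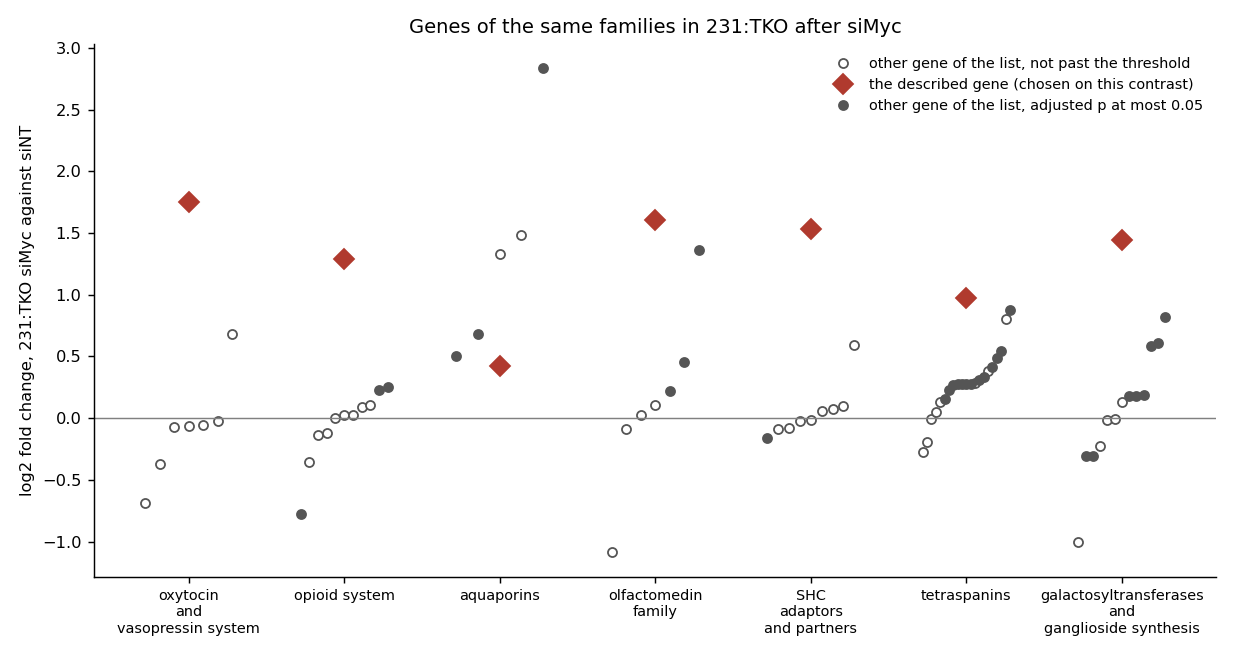
Log2 fold change after siMyc in 231:TKO of the tested genes of each family, with the 7 described genes as red diamonds and the others filled where the adjusted p is at most 0.05. AQP6, the highest point at 2.83, has a mean with siNT below the level of 3 counts, and 13 of 24 tetraspanins are filled, all above 0. Of all tested genes, 13.3% were called higher.

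In parental 231, none of these families had another gene past the threshold, with edgeR calling 0.24% of all tested genes as higher and 0.354% as lower. That test depends on the pair of libraries that stood apart. With a factor for the pair, 13.7% of all tested genes were called higher and 13.1% lower, and 17 of 24 tetraspanins rose and 1, TSPAN12, fell. TSPAN1 rose there by 0.54 on the log2 scale, CD63 by 0.44 and CD9 by 0.39, with adjusted p-values between 3.9e-12 and 1.0e-10 (edgeR, Benjamini-Hochberg). Under the same setting 3 of 6 aquaporins rose, AQP5 (0.69), AQP3 (0.41) and AQP11 (0.60), and ST3GAL5 rose by 0.34. ARRB2 fell by 0.59. For the difference between the responses of the populations, the families were read only in the fit without that factor. There 0 of all 25812 tested genes passed (0%), so no gene of the 7 families did.

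In untreated cells, relatives of several of the genes differed between 231:TKO and parental 231. SHC3, a sister of SHC2, stood at 9.79 ± 0.258 CPM in parental 231 against 44.5 ± 19.0 in 231:TKO (SD, n = 2 each). This came to 2.22 on the log2 scale (adjusted p = 0.0289). Of the tetraspanins, 4 of 22 tested were lower in 231:TKO, where 4.18% of all tested genes were lower and 9.61% passed in either direction. Among them were TSPAN33 (log2 fold change -2.90, adjusted p = 0.0123) and UPK1B, while TSPAN9 was higher (0.62, adjusted p = 0.0155). UPK1B and TSPAN8, also among the lower tetraspanins, had 0 counts in both 231:TKO libraries. In parental 231 they were at 0.783 ± 0.287 and 0.760 ± 0.268 CPM, so both passed the filter through parental 231 alone. In ganglioside synthesis, ST8SIA5 (2.94, adjusted p = 0.0202) and B3GALT5 (1.64, adjusted p = 0.0491) were higher and ST3GAL5 (-0.72, adjusted p = 0.0395) was lower. GNAI1 was lower by a log2 fold change of -0.67 (adjusted p = 0.0164). The olfactomedin gene GLDN was at 0.0514 CPM in 231:TKO, below the level of 3 counts, against 0.497 in parental 231. GLDN likewise passed the filter only through parental 231, the group where it was higher. These calls are edgeR's, with Benjamini-Hochberg adjustment, and with either parental 231 library left out no gene of any family passed.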

How the data were processed

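RNA sequencing libraries of MDA-MB-231 cells (16 in 6 groups, grouped by their labels) were analysed. For each library the authors deposited raw counts of reads per gene: reads were aligned to GRCh38 with STAR and assigned by strand with featureCounts 1.6.3, and the file headers name Ensembl release 102, or 104 for the siRNA-treated parental 231 libraries. Of 60719 identifiers 60620 are in both releases, and 97.4% of these have the same length. Symbols were matched for 58705 identifiers.

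The filter kept genes whose counts over a comparison's libraries sum to more than 5. The test was edgeR 4.0.16 in R 4.3.3 (quasi-likelihood, TMM scaling, robust, no covariate), each comparison on its own libraries and the difference of responses in 1 fit of 12. Calls have a Benjamini-Hochberg adjusted p of at most 0.05 over all tested genes. The study describes the untreated and the 231:TKO siRNA replicates as biological, but the sources used here do not say how the cultures were separated, and p-values measure the spread between these samples. The 7 genes, the family lists and the tests were chosen with earlier results of these data known. The genes were chosen on the siRNA libraries and have p-values in the untreated libraries only. Other genes named are the targeted genes, marker genes, genes within 2000 bases of or overlapping the 7, up to 3 called genes per family list and comparison by smallest adjusted p, and the 3 genes most like each of the 7. Beyond these, further family genes are named to describe their levels or values, among them AVPR2, AQP7, TSPAN12 and B4GALNT1. Two-sided tests were used throughout. Exact 95% binomial intervals (scipy 1.17.1) cover counting error only. Standard errors were derived from edgeR's test, as the size of the log2 fold change over the square root of its F statistic. The 95% intervals of log2 fold changes take these with a normal spread and do not allow for the small number of libraries. The steps were tested on simulated data with 200 changed genes. Alternatives were DESeq2 1.42.0, its size factors in edgeR, other filters, a replicate block, a shared fit, each replicate left out and, added after the data had been seen, the pair of parental libraries left out or given a factor. Promoter windows are those of RefSeq, with no entry used for B3GALT4, and protein sequences were not used here.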

Additional observations from a re-analysis of the deposited data

Results flagged for a closer look

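The SHC2 libraries of 231:TKO lay on opposite sides of those of parental 231 in untreated cells and with siNT. In untreated cells both 231:TKO libraries, at 0.601 and 0.104 CPM, lay below both parental 231 libraries, at 0.686 and 0.779, with a log2 fold change of -0.99 that did not pass the test (edgeR adjusted p = 0.481), and of -0.24 (adjusted p = 0.696) without 231:TKO replicate 2. With siNT all 231:TKO libraries, at 2.65 to 5.09 CPM, lay above all parental 231 libraries, at 1.62 to 2.34, with a log2 fold change of 0.90. The difference was not tested. The untreated values rest on 3 to 18 counts in each library, and untreated and siRNA libraries also differ in sequencing mode.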

How the results depend on the processing

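In untreated cells, 1919 genes passed the threshold by edgeR, 904 with a replicate block, and 0 to 7002 with each replicate left out in turn. Of the 7 genes, 1 passed by edgeR, 0 with DESeq2, 0 with more than 5 counts in every library (where OLFML3 was not tested), 0 with a replicate block (OLFML3 adjusted p = 0.0677) and 0 to 4 with a replicate left out. With each replicate left out, the log2 fold change there ran from -0.54 to 0.32 for TSPAN2 (0.03 without parental 231 replicate 2, 0.32 without 231:TKO replicate 1), from -0.31 (without 231:TKO replicate 1) to 0.81 for OPRL1 and from -0.027 (without 231:TKO replicate 2) to 0.38 for OXTR. In 231:TKO after siMyc, 6106 genes passed, and 2620 in 1 fit of the 12 siRNA libraries. In parental 231 after siMyc, 141 passed, against 1110 with DESeq2, 91 with its size factors in edgeR, 330 with no filter, 225 with more than 5 counts in every library, 0 with a replicate block (1992 at an unadjusted p under 0.05), 1739 in the 12-library fit, 0 to 160 with a replicate left out, 4673 without the pair that stood apart and 6366 with a factor for it. It fell to 0 without parental 231+siNT replicate 2 or 3 or parental 231+siMyc replicate 1 or 2, with 2268 to 2890 genes at an unadjusted p under 0.05. For the difference of the responses the count was 0, 6 with DESeq2, 63 without the pair and 147 with the factor. The causes were not tested. Under the alternatives, the log2 fold changes of the 7 genes after siMyc ran from 0.23 (AQP1) to 1.92 (OXTR) in 231:TKO. In parental 231 they ran from 0.85 (AQP1) to 1.59 (B3GALT4). The genes were chosen for their rise in these libraries, so the sign of these values describes the choice and is no support for it. The deviations of same-numbered siRNA replicates of a population from their group means had r from -0.813 to 0.632. With 3 libraries per group and the pair that stood apart, these values do not settle whether the numbers pair the samples. The untreated levels of OPRL1, OLFML3, SHC2 and B3GALT4 rest on 2 to 47 counts per library, which limits their precision.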
